A study of Saccharomyces cerevisiae with 9 samples.

Results

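The data describe where RNA polymerase I (Pol I) sat on the 35S ribosomal RNA gene of wild-type budding yeast, Saccharomyces cerevisiae, and which bases lay around the RNA 3′ ends it held. They come from native elongating transcript sequencing (NET-seq), in which Pol I is immunoprecipitated with its RNA and each read gives the position of the last nucleotide of that RNA. The 3 libraries labelled WT (genotype wild-type, no treatment) were taken out of 9, and all 6858 positions of the gene were used; the other libraries, from rpa34△ and rpa49△ strains, were not. The sources used here do not give the strain background, any tag on Pol I or whether the 3 libraries came from separate cultures. The p-values therefore speak only of the spread among these 3 libraries, which may be technical.

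Pol I makes a single long precursor from which the 18S, 5.8S and 25S rRNAs of the ribosome are cut, while the external and internal transcribed spacers around them (ETS 1, ITS 1, ITS 2 and ETS 2) are removed and degraded. A polymerase moves along a gene unevenly, and a position where it waits longer, called a pause, collects more RNA 3′ ends. The bases around the RNA 3′ end bear on such waiting: in Escherichia coli a guanine near the upstream end of the RNA-DNA hybrid, and a pyrimidine at the RNA 3′ end before an incoming guanine, are known parts of the pause sequence. An RNA 3′ end read within 18S, 5.8S or 25S may belong to a growing precursor or to a mature or partly degraded rRNA that came down with the polymerase, and these cannot be told apart in the deposited values. The same holds in spacers, where a 3′ end may belong to a growing precursor or to a cut or partly degraded one.

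The tables give the copy RDN37-2 on the minus strand of chromosome XII (460712 to 467569, build R64), counted from 467569 downwards. Build R64 also annotates RDN37-1, at 451575 to 458432, with the same length, and how reads that match both copies were placed is not given. Spacers took up 1504 positions and mature rRNA 5354. Occupancy is in reads per 1000000 reads of a library over the gene (RPM). The libraries held 4448067, 4857537 and 5353045 reads, so that 1 read was worth 0.225, 0.206 and 0.187 RPM. At 14 positions all 3 libraries were at 0. They were 5 of the first 10 positions and, at each mature 3′ end, 3 adjacent positions (2499 to 2501, 3018 to 3020 and 6647 to 6649). A measured 0 allows up to 0.674, 0.618 and 0.560 RPM from 3 reads of the library, counting error only. The sources used here do not say whether any of these positions were set to 0 in processing, in which case that bound does not apply.

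The following RNA sequences surround the 3′ ends that stood highest above their own surroundings. They are shown so that the bases around these 3′ ends can be read. Each runs 5′ to 3′ in RNA letters, from 20 nt upstream of the RNA 3′ end to 10 nt beyond it, and was read from the base column of the deposited tables. The capitals mark the last 2 nucleotides of the RNA, at offsets -1 and 0. Coordinates are on the minus strand of build R64. First come the 8 highest summits in spacers, from the highest down.
Position 232, ETS 1, chrXII:467328-467358: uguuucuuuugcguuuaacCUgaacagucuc
Position 2659, ITS 1, chrXII:464901-464931: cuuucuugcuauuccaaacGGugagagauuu
Position 405, ETS 1, chrXII:467155-467185: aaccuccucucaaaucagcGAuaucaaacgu
Position 6662, ETS 2, chrXII:460898-460928: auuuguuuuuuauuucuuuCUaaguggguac
Position 336, ETS 1, chrXII:467224-467254: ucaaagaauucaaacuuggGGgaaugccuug
Position 437, ETS 1, chrXII:467123-467153: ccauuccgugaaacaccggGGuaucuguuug
Position 102, ETS 1, chrXII:467458-467488: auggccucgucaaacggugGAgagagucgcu
Position 2617, ITS 1, chrXII:464943-464973: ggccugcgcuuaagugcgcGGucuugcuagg
The 8 highest summits in mature rRNA follow in the same way.
Position 1031, 18S, chrXII:466529-466559: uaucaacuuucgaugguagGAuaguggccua
Position 2498, 18S, chrXII:465062-465092: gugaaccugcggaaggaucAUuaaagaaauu
Position 6646, 25S, chrXII:460914-460944: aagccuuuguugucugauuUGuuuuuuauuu
Position 6628, 25S, chrXII:460932-460962: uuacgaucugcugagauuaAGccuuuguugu
Position 5046, 25S, chrXII:462514-462544: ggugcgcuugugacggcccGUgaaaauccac
Position 3015, 5.8S, chrXII:464545-464575: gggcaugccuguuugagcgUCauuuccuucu
Position 2970, 5.8S, chrXII:464590-464620: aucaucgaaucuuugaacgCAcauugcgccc
Position 6318, 25S, chrXII:461242-461272: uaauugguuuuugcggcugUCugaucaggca

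Of these, 6 of 8 in spacers carried a guanine at offset -1 and 6 of 8 ended in a purine, while 2 of 8 in mature rRNA carried that guanine. These 16 were picked for their height and are not a sample of all summits. Over all summits, 45.9% in spacers and 62.3% in mature rRNA carried that guanine, as given further on. Position 2498, position 6646 and position 3015 lay within 10 nt of a mature 3′ end.

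The 3 WT profiles were alike position by position. The Spearman correlation between libraries over positions was 0.982 to 0.984 in spacers and 0.976 to 0.987 in mature rRNA, over the 3 pairs. By region the lowest pair was 0.983 in ETS 1, 0.975 in ITS 1, 0.975 in ITS 2 and 0.959 in ETS 2, against 0.975 in 18S, 0.984 in 5.8S and 0.976 in 25S. These are correlations across positions of 1 gene, which are not independent replicates. ETS 2, the stretch behind 25S where Pol I terminates, was the shallowest, with a median of 24 reads per position over the libraries, against 124 over all spacers and 639 in mature rRNA. After each position was divided by its local median, the lowest correlation was 0.910 in ETS 2 and 0.964 to 0.980 in the other 6 regions.

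The spread of single positions between libraries was wider in spacers than in mature rRNA. At positions averaging 10 RPM or more, the median coefficient of variation (CV, the SD over the 3 libraries as a percent of the mean) was 14.1% in spacers and 8.07% in mature rRNA. Counting error alone would give 7.54% in spacers and 3.95% in mature rRNA. Part of the spread lay in whole regions that moved together. ETS 1 held 5.92%, 5.38% and 7.04% of the reads of WT replicates 1, 2 and 3, and ETS 2 held 0.575%, 0.770% and 0.775%. When each library was scaled within the region, the median CV was 10.2% in ETS 1, against 16.7% on the scale of the whole gene, and 11.2% in ETS 2, against 16.1%. In 18S the same step left the CV at 8.16%, against 8.18%.

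**Figure D1:**
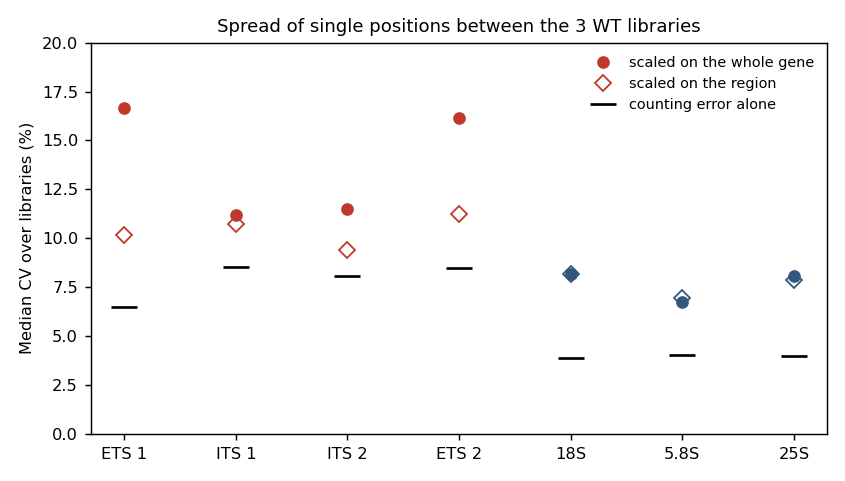
Median coefficient of variation (%) of single positions over the 3 WT libraries, by region (spacers in red, mature rRNA in blue). Filled circles are scaled on the whole gene, open diamonds on the region and black bars mark counting error alone; ETS 1 (16.7%) and ETS 2 (16.1%) stood highest on the whole-gene scale, and every region lay above its counting error.

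Occupancy per nucleotide differed between the classes, and the spacer level rested on fewer positions. Spacers averaged 60.1, 59.3 and 71.2 RPM per nt in WT replicates 1, 2 and 3, against 170, 170 and 167 RPM per nt in mature rRNA. The median position gave 24.2, 24.5 and 27.3 RPM in spacers and 134, 132 and 127 RPM in mature rRNA. The mean was 2.49, 2.42 and 2.61 times the median in spacers and 1.27, 1.29 and 1.31 times in mature rRNA. In RPM the gap between mean and median was about as wide in both classes.

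**Figure D2:**
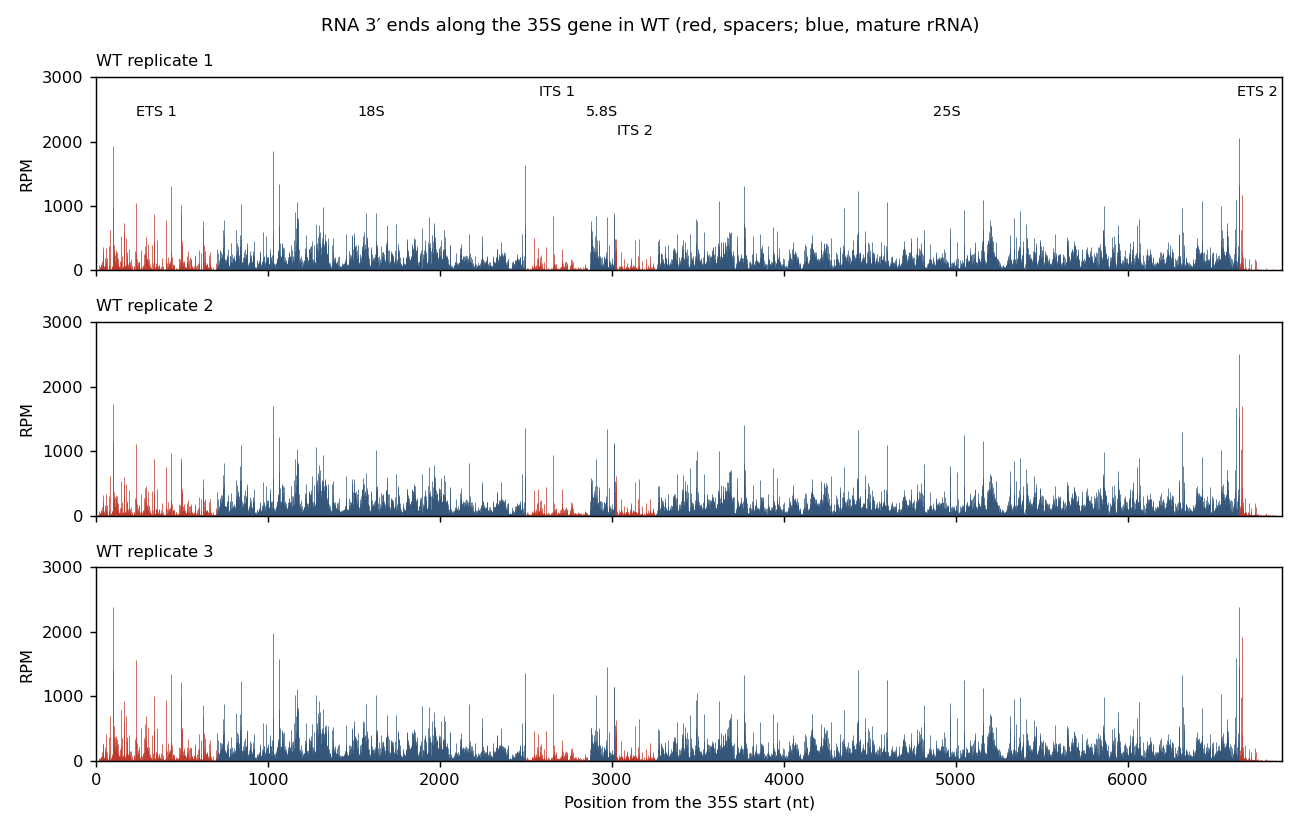
Occupancy in RPM (vertical axis) at each position of the 35S gene (horizontal axis, nt from its start) in WT replicates 1, 2 and 3, with spacers in red and mature rRNA in blue. Narrow spikes, such as positions 102, 1031 and 6646, recurred in all 3 libraries, and the level between spikes was lower in the spacers.

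To find the spikes, each position was set against its surroundings in the same library: log2(RPM + 10) at the position minus log2(the median RPM of the other positions within 25 nt in the same region, + 10). A position is called a peak here when this local log2 fold was above 2-fold at an adjusted p under 0.05 (limma's treat test with Benjamini-Hochberg adjustment), and a summit is the highest peak within 3 nt. Of 6498 positions averaging 10 RPM or more, 664 were peaks, 10.2% of those tested. Spacers held 250 peaks among 1170 tested positions (21.4%), and mature rRNA held 414 among 5328 (7.77%). The background share of 10.2% thus lay between the classes. Counted over all positions, tested or not, the shares were 16.6% in spacers and 7.73% in mature rRNA. With edgeR's quasi-likelihood test on whole reads in place of limma, 723 positions (11.1%) were peaks. Against a 4-fold minimum 152 were (2.34%), with 88 in spacers and 64 in mature rRNA.

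Peaks in spacers also stood higher as a fold over their surroundings, which were lower there in RPM. Their median local fold was 3.69, against 2.88 in mature rRNA. By region it was 3.95 in ETS 1, 3.13 in ITS 1, 4.33 in ITS 2 and 3.87 in ETS 2. Within mature rRNA it was 2.88 in 18S, 3.37 in 5.8S and 2.88 in 25S, so ITS 1 lay below 5.8S. Of the peaks, 46 in spacers and 14 in mature rRNA stood more than 8-fold above their surroundings. Peaks took 62.4%, 62.0% and 63.1% of spacer occupancy in WT replicates 1, 2 and 3, against 21.1%, 21.7% and 22.7% of occupancy in mature rRNA. The difference was 40.7 ± 0.555 percentage points (SD, n = 3), above 0 in 3 of 3 libraries. An exact two-sided sign-flip permutation test over 3 libraries gave p = 0.25, the smallest it can give, and 0.25 after Benjamini-Hochberg adjustment over 4 such measures.

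The other 3 measures used no peak call and gave the same order, also at p = 0.25 each in the exact sign-flip test. The highest 5% of positions held 39.4% ± 0.762 of occupancy in spacers and 18.1% ± 0.691 in mature rRNA. The SD of the local log2 fold over positions was 1.11, 1.10 and 1.14 in spacers and 0.85, 0.86 and 0.88 in mature rRNA. Positions at least 2-fold over their surroundings in a library made up 19.9%, 19.7% and 20.6% of spacers and 11.3%, 11.4% and 12.1% of mature rRNA.

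**Figure D3:**
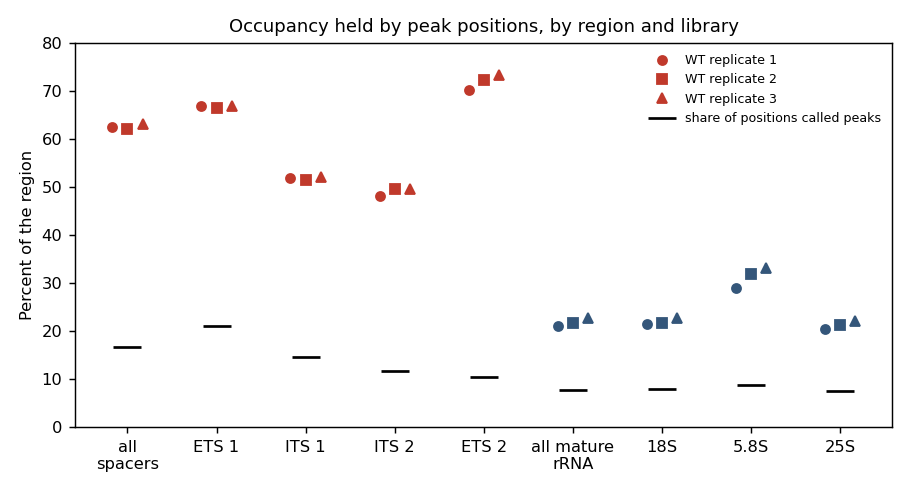
Percent of a region's occupancy that fell on peak positions in WT replicates 1, 2 and 3 (red, spacers; blue, mature rRNA), with black bars for the percent of the region's positions called peaks. Peaks held 48.2% to 73.3% of occupancy in the 4 spacers and 20.4% to 33.1% in the 3 mature rRNAs.

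Positions below their surroundings lay mostly in mature rRNA, which also held most of the tested positions. By the same test in the other direction, 363 of 6498 tested positions (5.59%) were more than 2-fold below their local median (limma's treat test with Benjamini-Hochberg adjustment). Spacers held 24 of them among 1170 tested positions, with 22 of 594 in ETS 1, 1 of 289 in ITS 1, 1 of 209 in ITS 2 and 0 of 78 in ETS 2. Mature rRNA held 339 among 5328, with 105 of 1794 in 18S, 7 of 147 in 5.8S and 227 of 3387 in 25S. The minimum of 10 RPM and the pseudocount of 10 RPM leave less room for such a call in spacers, where the median position was at 24.2 to 27.3 RPM, than in mature rRNA, where it was at 127 to 134 RPM.

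The spacers differed among themselves. ETS 1, the 5′ leader of the precursor, had the densest summits, 68 or 9.71 per 100 nt, and 148 peaks that took 66.8%, 66.5% and 66.9% of its occupancy. ITS 1, which parts 18S from 5.8S, had 28 summits (7.76 per 100 nt) and 53 peaks with 51.9%, 51.4% and 52.1%. ITS 2, which parts 5.8S from 25S, had 14 summits (6.03 per 100 nt) and 27 peaks with 48.2%, 49.5% and 49.5%. ETS 2 had 12 summits (5.69 per 100 nt), and its 22 peaks took 70.2%, 72.3% and 73.3% of its occupancy although 78 of its 211 positions passed the 10 RPM minimum. Summit density was lower in each mature rRNA, with 4.22 per 100 nt in 18S, 5.06 in 5.8S and 4.24 in 25S.

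The tallest peak relative to its surroundings was position 232 in ETS 1. It gave 1046, 1118 and 1565 RPM in WT replicates 1, 2 and 3, against local medians of 19.3, 20.2 and 26.0 RPM. The local log2 fold was 5.28 (SE 0.096, limma's treat test, adjusted p = 2.69e-16), and the positions just before and after it averaged 306 and 243 RPM. All 3 libraries thus stood far above the local level, and replicate 3 was the highest of them.

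Position 2659 in ITS 1 gave 849, 936 and 1031 RPM, against local medians of 16.6, 17.1 and 20.4 RPM, a local log2 fold of 5.08 (SE 0.083). It stood nearly alone, since its neighbours averaged 54.9 RPM before it and 76.5 RPM after it. Position 405 in ETS 1 was alone as well, with 777, 754 and 941 RPM, neighbours at 12.2 and 29.7 RPM and a local log2 fold of 4.85 (SE 0.081). Position 2617 in ITS 1 had a lower level, 371, 447 and 458 RPM, between neighbours at 21.3 and 35.4 RPM, and a local log2 fold of 4.17 (SE 0.065).

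Position 6662 in ETS 2 lies 1 nt before the element that the tables label as the residue cleaved by Rnt1, the RNase III that cuts the 3′ spacer of the precursor. It gave 1167, 1709 and 1922 RPM and a local log2 fold of 4.76 (SE 0.106). The position before it averaged 886 RPM and the one after it 28.5 RPM, a drop within 1 nt, and occupancy was high again at position 6666, with a mean of 379 RPM. WT replicate 1 was the lowest of the 3 there. Whether the 3′ ends at position 6662 belonged to a growing precursor or to cut RNA was not tested.

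The remaining 3 of these 8 were in ETS 1. Position 336 gave 882, 875 and 1007 RPM, position 437 gave 1310, 979 and 1353 RPM and position 102 gave 1930, 1734 and 2384 RPM. Their local log2 folds were 4.56, 4.25 and 4.22. Position 102 was the highest of ETS 1 by level. In each of them replicate 2 was the lowest and replicate 3 the highest, as was the whole of ETS 1.

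In mature rRNA the tallest peak relative to its surroundings was position 1031 in 18S. It gave 1851, 1704 and 1977 RPM over local medians of 106, 113 and 114 RPM. Its local log2 fold was 3.93 (SE 0.111, adjusted p = 1.41e-13 in limma's treat test). Position 2498 gave 1630, 1353 and 1363 RPM, 2 nt before the last nucleotide of 18S, and was followed by a position at 0. Position 6646, the last but 1 of 25S, gave 2063, 2504 and 2394 RPM, the highest level of the gene, and was also followed by a position at 0. Their local log2 folds were 3.87 and 3.84. Both of the positions at 0 are among those listed earlier at mature 3′ ends, and whether they were measured or set to 0 is not given.

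In 5.8S the highest positions were 2970 and 3015. Position 2970 gave 826, 1346 and 1450 RPM (local log2 fold 3.403) and position 3015 gave 894, 1114 and 1141 RPM (3.45). At both, replicate 1 lay below the other libraries. In 25S, position 6628 gave 1090, 1665 and 1590 RPM (3.61), position 5046 gave 943, 1245 and 1250 RPM (3.56) and position 6318 gave 963, 1299 and 1331 RPM (3.28). Replicate 1 was the lowest at all 3.

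Position 3025 was the highest of ITS 2, with 493, 612 and 640 RPM and a local log2 fold of 3.60. It lay 6 nt past the end of 5.8S, and whether its 3′ ends belonged to a growing precursor or to cut RNA was not tested. Of the 350 summits, 8 lay within 10 nt of a mature rRNA end. Just inside the threshold for a peak was position 6578 in 25S (local log2 fold 1.19, adjusted p = 0.0475 in limma's treat test) and just outside it was position 6115 in 25S (1.17, adjusted p = 0.0517).

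The elements that the tables name in ETS 2 held summits as well. The Rnt1 element, positions 6663 to 6697, averaged 46.1, 60.05 and 57.2 RPM per nt and held 5 peaks with summits at 6666 (local log2 fold 2.96) and 6680 (2.59). T1, the terminator element at position 6739, was a summit at 174, 191 and 204 RPM, against local medians of 4.95, 5.87 and 6.35 RPM (local log2 fold 3.66, SE 0.059). The position before T1 averaged 61.4 RPM and the one after it 6.02 RPM. In the binding site of Reb1 and Nsi1, DNA-binding proteins that act in Pol I termination, positions 6757 to 6767 averaged 6.56, 6.18 and 7.08 RPM per nt. That site held 1 summit, position 6758, at 24.95, 24.9 and 26.5 RPM (local log2 fold 1.36, adjusted p = 0.000683 in limma's treat test).

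Summits were closer together in spacers as a class. Neighbouring summits of a region lay a median of 9.5 nt apart in spacers (quartiles 6 and 15, 118 distances) and 22 nt apart in mature rRNA (10 and 34, 225 distances). The medians were 9 nt in ETS 1, 8 nt in ITS 1, 17 nt in ITS 2 and 14 nt in ETS 2, against 25 nt in 18S, 14 nt in 5.8S and 19 nt in 25S. ETS 2 and 5.8S thus had the same median, and ITS 2 had a wider one than 5.8S. ETS 1 gave 67 and ITS 1 gave 27 of the 118 distances in spacers. The longest stretch between summits was 41 nt in spacers, from 2801 to 2842 in ITS 1, and 81 nt in mature rRNA, from 5652 to 5733 in 25S. Distances over 50 nt numbered 0 in spacers and 15 in mature rRNA. Positions of 1 gene are not replicates, so the spacing was not tested.

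**Figure D4:**
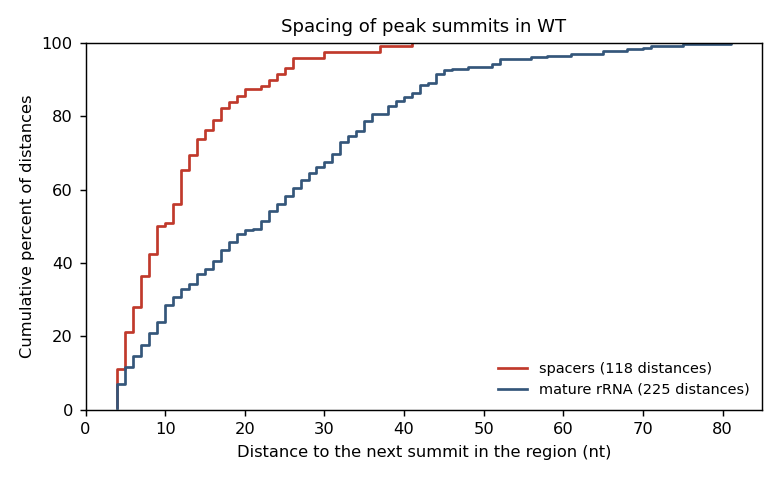
Cumulative percent of the distances between neighbouring summits in the same region (vertical axis) against the distance in nt (horizontal axis), for spacers in red and mature rRNA in blue. The red curve lay above the blue one: the median distance was 9.5 nt in spacers and 22 nt in mature rRNA.

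The positions beside a summit were lower, relative to it, in spacers. Runs of adjacent peaks were 1 nt long in 69.2% of cases in spacers and 71.7% in mature rRNA. The position before a summit had a median of 0.243 of the summit's level in spacers and 0.399 in mature rRNA, and the position after it 0.213 in spacers and 0.455 in mature rRNA. The correlation of the local log2 fold between positions 1 nt apart was 0.38, 0.38 and 0.39 in spacers and 0.55, 0.52 and 0.51 in mature rRNA in WT replicates 1, 2 and 3. At 3 nt it was 0.05, 0.03 and 0.05 in spacers and 0.31, 0.28 and 0.27 in mature rRNA. In spacers a position therefore carried little of its neighbour's excess beyond 2 nt, and in mature rRNA this reached about 5 nt, where the correlation averaged 0.14. These correlations are descriptions over positions that share libraries.

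The base just before the RNA 3′ end, offset -1, showed the largest effect. For each library, the mean local log2 fold over positions with a given base at a given offset was taken relative to the mean of the class, from offset -12 to +6, in 76 combinations, and tested against 1.2-fold. With guanine at -1, local occupancy was higher by 0.542, 0.539 and 0.540 (log2) in spacers and by 0.405, 0.3999 and 0.404 in mature rRNA. Both were past the threshold (limma's treat test, adjusted p = 8.92e-94 in spacers and 4.08e-06 in mature rRNA). The means were 0.54 (SE 0.0056) and 0.40 (SE 0.0031). Such p-values rest on a spread pooled over the combinations and speak of repeat libraries of the same positions, not of other sequences. Past the threshold were 2.63% of the combinations in spacers (2 of 76) and 1.32% in mature rRNA (1 of 76).

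The guanine effect at -1 was positive in each of the 7 regions. It was 0.65 in ETS 1, 0.58 in ITS 1, 0.37 in ITS 2 and 0.25 in ETS 2, against 0.42 in 18S, 0.60 in 5.8S and 0.39 in 25S. Of positions after a guanine, 30.0% in spacers (103 of 343) and 15.1% in mature rRNA (220 of 1461) were peaks, against 16.6% of all spacer positions and 7.73% of all positions in mature rRNA. Spacers minus mature rRNA was 0.14 (SE 0.0048), positive in 3 of 3 libraries but within 1.2-fold (adjusted p = 1 in limma's treat test against that fold).

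**Figure D5:**
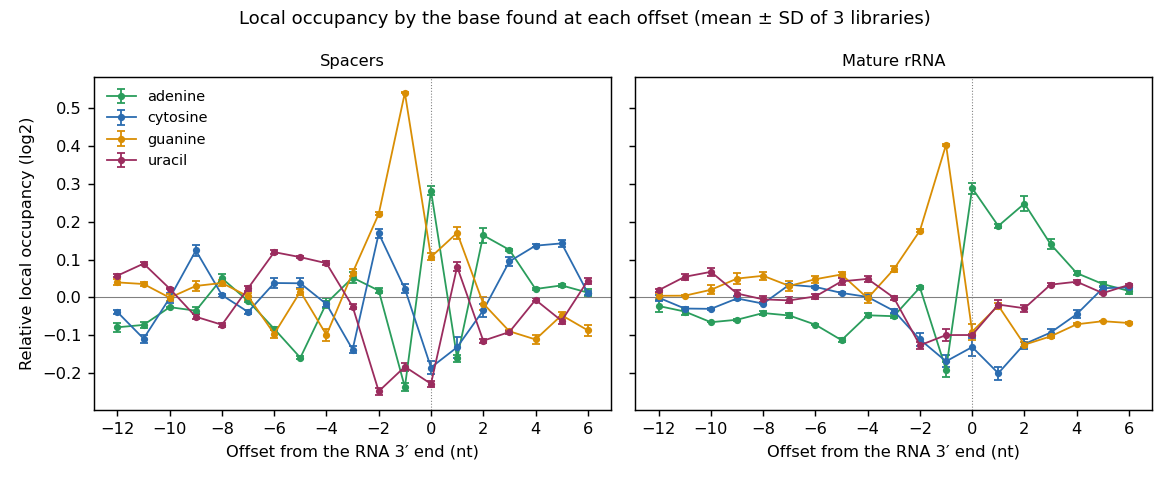
Mean local log2 fold of positions with each base, relative to the class mean (vertical axis, log2), against the offset of the base from the RNA 3′ end in nt (horizontal axis), in spacers (left) and mature rRNA (right). Points are means and bars SD over the 3 WT libraries; guanine at -1 (0.54 in spacers and 0.40 in mature rRNA) stood highest in both panels, and adenine at +1 lay below 0 in spacers and above 0 in mature rRNA.

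The bases at summits were counted as a description, from the same values. A guanine at -1 was found at 56 of 122 summits in spacers (45.9%, against 22.9% of all spacer positions) and at 142 of 228 in mature rRNA (62.3%, against 27.3%). A cytosine at -2 preceded 32.0% of summits in spacers, where 15.7% of positions have it, and 22.4% of summits in mature rRNA, where 19.6% have it. At the 3′ end itself, 41.8% of summits in spacers and 47.4% in mature rRNA carried adenine, against 28.3% and 26.6% of positions.

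Adenine at offset 0, the last nucleotide of the RNA, also went with higher occupancy. The means were 0.28 (SE 0.0057) in spacers and 0.29 (SE 0.0060) in mature rRNA, above 0 in each of the 7 regions. Spacers were past the threshold (adjusted p = 0.0283, limma's treat test) and mature rRNA was not (adjusted p = 0.162), yet the difference between them was -0.01 (SE 0.0048), so the calls do not separate the classes. The call in spacers was lost without any 1 of the libraries, with adjusted p from 0.0754 to 1. Of spacer occupancy, 35.5%, 34.5% and 34.9% fell on adenine, 28.3% of spacer positions, and of mature rRNA occupancy 32.9%, 32.4% and 33.0%, on 26.6% of positions. By this share ETS 2 went the other way. There adenine held a mean of 18.1% of occupancy on 31.1% of positions, and uracil 48.4% on 36.8%. Position 6662, a uracil, averaged 1599 RPM, against 33.5 RPM per nt over the 211 positions of ETS 2. The shares without that position were not computed. By local log2 fold ETS 2 did not go the other way, with adenine at 0.15 and uracil at -0.11. Uracil at the 3′ end was on the low side by local log2 fold, at -0.23 in spacers and -0.10 in mature rRNA, as was cytosine, at -0.19 and -0.13. Each was above 0 in 1 of the 7 regions, uracil in 5.8S (0.05, with adenine there at 0.06) and cytosine in ITS 2 (0.04). Guanine at 0 gave 0.11 in spacers and -0.09 in mature rRNA, a difference of 0.20 that was within 1.2-fold (adjusted p = 1, limma's treat test).

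The base still to be added, offset +1, separated the classes. With adenine at +1, local occupancy was -0.17, -0.15 and -0.16 (log2) in spacers and 0.19, 0.19 and 0.18 in mature rRNA. Spacers minus mature rRNA was -0.35 (SE 0.0048, limma's treat test, adjusted p = 4.06e-38), negative in 3 of 3 libraries. The sign was negative in 4 of 4 spacers, from -0.21 in ETS 2 to -0.11 in ITS 1, and positive on average in 3 of 3 mature rRNAs, with 0.21 in 18S, 0.02 in 5.8S and 0.18 in 25S. The difference was -0.25 and within 1.2-fold when the pseudocount was 50 RPM. Cytosine at -2 was the other difference past the threshold, of 2 of 76 combinations (2.63%). It gave 0.17 in spacers and -0.11 in mature rRNA, a difference of 0.28 (adjusted p = 0.0111, limma's treat test). It was past the threshold in 4 of 11 alternatives, and without replicate 2 it was 0.27 (adjusted p = 1).

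Pairs of the last base and the next one showed how the 2 combine. In spacers the highest were A then U at 0.57 ± 0.033 (104 positions), G then U at 0.51 ± 0.023 (99) and A then G at 0.51 ± 0.022 (111; SD over 3 libraries), each positive in 4 of 4 spacers. The lowest were C then G at -0.35, U then U at -0.34 and C then A at -0.29. In mature rRNA the highest were A then A at 0.45 ± 0.0054 (441 positions, positive in 2 of 3 mature rRNAs), A then U at 0.39 and A then G at 0.23. The lowest were C then C at -0.34, G then C at -0.28 and U then U at -0.19. The pair A then A, the highest in mature rRNA, was at -0.01 in spacers.

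The pair of bases at -1 and 0 was described after the single-base values had been seen and has no test. Guanine then adenine gave 1.01 in spacers (104 positions) and 0.70 in mature rRNA (405), and guanine then guanine gave 0.93 (79) and 0.49 (425). Guanine then cytosine gave 0.03 and 0.14, and guanine then uracil 0.05 and 0.17. Adenine then adenine gave -0.13 and -0.0022. The excess after a guanine was thus mostly at positions where a purine followed it.

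Positions where guanine was followed by a purine made up 12.2% of spacers (183 positions) and 15.5% of mature rRNA (830). They held 32.0%, 30.4% and 31.0% of spacer occupancy and 23.4%, 22.6% and 23.1% of occupancy in mature rRNA. The mean share was 36.1% in ETS 1, 31.1% in ITS 1, 16.1% in ITS 2 and 14.5% in ETS 2. In 18S, 5.8S and 25S it was 22.2%, 17.2% and 23.8%, so by this share ITS 2 and ETS 2 lay below all of these. Such positions were not equally common, at 13.5% of ETS 1, 11.1% of ITS 1, 11.3% of ITS 2 and 11.005% of ETS 2. In 18S, 5.8S and 25S they made up 14.6%, 12.2% and 16.1%. The shares were not adjusted for this, so their order does not rank the regions by occupancy per such position. The group was chosen from these same values, so its excess is a description and not a test. Of them, 79 in spacers (43.2%) and 164 in mature rRNA (19.8%) were peaks, against 13.0% of the other spacer positions and 5.53% of the others in mature rRNA. By region the share called was 52.1% in ETS 1, 45.0% in ITS 1, 26.9% in ITS 2 and 21.7% in ETS 2. It was 21.7% in 18S, 21.1% in 5.8S and 18.8% in 25S. Of the other positions, 16.5%, 10.9%, 9.76% and 9.14% were called in the same 4 spacers. In 18S, 5.8S and 25S, 5.60%, 7.30% and 5.41% of the others were called. Not every position with guanine then a purine was high: 16.9% of them in spacers and 21.9% in mature rRNA lay below their surroundings. Of the summits, 36.1% in spacers and 43.9% in mature rRNA had it. In the sequences above, positions 2659, 405, 336, 437, 102, 2617 and 1031 carry it.

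Over each class as a whole, GC content around the RNA 3′ end was at most weakly related to local occupancy. Across positions, the Spearman correlation of the local log2 fold with the GC content of the last 9 nt of RNA was 0.08, 0.08 and 0.07 in spacers and 0.09, 0.07 and 0.07 in mature rRNA. By region this averaged 0.08 in ETS 1, 0.11 in ITS 1, 0.21 in ITS 2 and 0.02 in ETS 2, against 0.02 in 18S, 0.20 in 5.8S and 0.10 in 25S, so that ITS 2 (231 positions) and 5.8S (156) stood highest. For the 8 nt before the 3′ base, it averaged 0.09 in spacers and 0.13 in mature rRNA. By region it was 0.07 in ETS 1, 0.14 in ITS 1, 0.21 in ITS 2 and 0.04 in ETS 2, against 0.06 in 18S, 0.26 in 5.8S and 0.16 in 25S. For the RNA 10 to 29 nt upstream it averaged -0.02 in spacers and -0.05 in mature rRNA. For the next 10 nt it averaged 0.02 in spacers and -0.12 in mature rRNA. For the predicted folding energy of 40 nt of RNA behind the polymerase it averaged 0.06 in spacers and -0.03 in mature rRNA. Neighbouring positions share their windows, so these values have no p, and correlations this weak are no finding. With the level, log2(RPM + 10), in place of the local fold, the last 9 nt gave 0.26 in spacers and 0.00 in mature rRNA, and the next 10 nt gave 0.22 and -0.15. Spacers are poorer in GC as a whole, at 38.6% against 46.8% in mature rRNA, and ETS 2, the lowest by level, has 31.75%.

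The share of tested positions called peaks also varied with the GC content of the last 9 nt. Where they held 5 to 9 G or C, 26.9% in spacers and 10.01% in mature rRNA were peaks, and where they held 0 to 2, 15.9% in spacers and 5.08% in mature rRNA. The window includes offsets -1 and 0, whose bases had effects of their own. For the next 10 nt, the shares at 6 to 10 G or C were 24.4% in spacers and 5.79% in mature rRNA, against 18.5% and 10.8% at 0 to 3. In spacers the level moved with GC too. For the last 9 nt the median position had 38.3 RPM at 5 to 9 G or C and 16.5 RPM at 0 to 2. Of these positions, 89.2% and 68.0% reached the 10 RPM needed for a test. For the next 10 nt the median position had 36.6 RPM at 6 to 10 G or C and 21.02 RPM at 0 to 3. There 89.9% and 72.6% of positions reached that minimum. The part of the level in the shares was not tested. The local fold in spacers did not follow the sequence ahead in a settled direction, since its correlation of 0.02 turned to -0.0178 with surroundings within 12 nt.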

How the data were processed

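Pol I was immunoprecipitated from frozen, cold-lysed cells, per the labels' protocols, and a linker with a unique molecular identifier was joined to the RNA 3′ ends. The tools were STAR 2.7.1a, R 4.0.2, cutadapt 3.4, bedtools 2.28.0, bcl2fastq 2.20.00 and SAMtools 1.6, with build R64, per the submitters' processing notes. The sources used here do not say whether identifiers were collapsed, how end positions were assigned or how reads of repeated copies were placed. The values the authors deposited are in RPM, scaled on positions 1 to 6739. The WT columns were identical in both deposited tables. They were whole multiples of 1 step, and at least 99.956% of values per library gave whole reads within 0.01 read. The depths in the report are sums of these reads.

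Here each library was scaled over the whole gene. Positions averaging 10 RPM or more and not at 0 in all 3 libraries were tested with limma 3.58.1 (R 4.3.3; lmFit with an intercept, treat with trend), as the report defines. Local medians stayed within a region. The pseudocount of 10 RPM understates folds of low positions. Base and offset means left out positions at 0 in all libraries and were tested with limma's treat against 1.2-fold. Folding energies came from RNAfold 2.7.2, over 40 nt ending 16 nt before the 3′ end. On simulated data with known answers, the peak test was run on 6694 positions. It called 62 of 67 positions raised 3-fold, 67 of 67 raised 4-fold and 66 of 66 raised 8-fold. It called 0 of 6494 unchanged ones, but these were simulated around their local median. No position was raised by close to 2-fold, so the run does not show how often such positions are called wrongly. Alternatives varied the pseudocount, window, filter, fold, scale, summit width, variance model and libraries, and edgeR 4.0.16 was run on recovered reads. The planned edgeR test with an offset could not be run on a model of 1 column, so a library term and the local median as a second column were used. Tables and plots were made with pandas 2.3.3, scipy 1.17.1, matplotlib 3.10.9 and numpy 2.4.6 in Python 3.11.15. The members, lists and rules were chosen with earlier results of these data known. Named items were, by rule, each annotated region, the 8 summits of each class with the largest local log2 fold, the highest summit of each region, base and offset combinations past the threshold at -1, 0 and +1, the 3 highest and lowest pairs at 0 and +1, and annotated elements with a summit. Cytosine at -2 and the pairs at -1 and 0 were named after their values were seen.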

Additional observations from a re-analysis of the deposited data

How the results depend on the processing

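No paired analysis was possible because only 1 of the study's groups was used, so no 2 groups shared a replicate number. The differences between spacers and mature rRNA were taken within each library. The direction of the difference between spacers and mature rRNA in the percent of occupancy in peaks was positive in all 15 alternatives, at 34.4 to 42.3 percentage points. With a pseudocount of 50 RPM the peaks numbered 406, of which 144 in spacers and 262 in mature rRNA, and with a 4-fold minimum 152, with 88 in spacers and 64 in mature rRNA. Without each replicate in turn there were 592 to 663 peaks, 234 to 241 in spacers and 358 to 422 in mature rRNA. edgeR's quasi-likelihood test called 723, which included all 664.

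Median spacing of summits in spacers and in mature rRNA was 17 and 80 nt with a 4-fold minimum, 6 and 13 nt with summits highest within 1 nt, and 13 and 25.5 nt within 5 nt. Without each replicate it was 9 to 10.5 nt in spacers and 22 to 24 nt in mature rRNA. On the local log2 fold the lowest Spearman correlation between libraries was 0.976 in spacers and 0.970 in mature rRNA.

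Guanine at -1 stayed past the threshold in both classes in all 11 alternatives, at 0.33 to 0.82 in spacers and 0.31 to 0.44 in mature rRNA. Adenine at +1, spacers minus mature rRNA, was past it in 10 of 11, and cytosine at -2 in 4 of 11, at 0.21 to 0.53. The difference for adenine at 0 was 0.0031 on mean RPM, 0.012 and 0.0015 with surroundings within 12 and 50 nt, 0.087 with a pseudocount of 1 RPM and 0.016 without positions within 10 nt of mature rRNA ends, against -0.01 in the report, so it had no settled sign. Combinations past the threshold in spacers numbered 16 on mean RPM over the class mean, 6 with a pseudocount of 1 RPM, and 1 with the median, with a pseudocount of 50 RPM, without each replicate (1 to 1) and without positions over 8-fold, an alternative added after seeing the data. In mature rRNA they numbered 2 on mean RPM, with the median, within 50 nt and with a pseudocount of 1 RPM, and 1 to 2 without each replicate. For spacers minus mature rRNA they numbered 17 on mean RPM, 0 with a pseudocount of 50 RPM, and 1 with the median, within 12 nt, within 50 nt, without mature rRNA ends and without positions over 8-fold, and 1 to 2 without each replicate. The cause of these shifts was not tested.

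The GC correlations moved by more than the spread between libraries under many settings. For the last 9 nt, spacers gave 0.257 on the level, 0.0999 with the shorter windows of 6, 10 and 5 nt, 0.0359 within 12 nt, 0.126 within 50 nt and 0.0869 without mature rRNA ends, and mature rRNA gave 0.00403, 0.0648, 0.126 and 0.0351 on the level, with shorter windows, within 12 nt and within 50 nt. For the RNA upstream, spacers gave 0.156 on the level, 0.0407 with shorter windows, 0.00104 within 50 nt and -0.0364 without mature rRNA ends, and mature rRNA gave -0.123 on the level and -0.0685 within 50 nt. For the next 10 nt, spacers gave 0.217, 0.00044, -0.0178, 0.0691 and 0.0269 on the level, with shorter windows, within 12 nt, within 50 nt and without mature rRNA ends, and mature rRNA gave -0.152, -0.198 and -0.135 on the level, with shorter windows and within 50 nt. For folding energy, spacers gave -0.00468, 0.0197, 0.1601 and 0.0721 on the level, within 12 nt, within 50 nt and without mature rRNA ends, and mature rRNA gave 0.0760, -0.00907 and -0.0248 on the level, within 12 nt and without mature rRNA ends. Spacers were shallower than mature rRNA, with counting error of 7.54% against 3.95% at the median tested position.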
